A study of Mus musculus with 54 samples.

Results

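Imprinted genes are expressed mainly from the copy inherited from 1 parent, because the other copy carries a silencing mark, most often DNA methylation, that was set in the germ line. Many of them lie in clusters in which 1 imprinting control region governs several neighbours, and antisense or other noncoding RNAs of the cluster often silence the protein-coding genes around them. In the brain they include regulators of growth, neuronal differentiation, feeding and maternal behaviour, and the genes of the Prader-Willi region are the best known of them. The 41 imprinted genes described here were chosen by name, out of 47069 genes in the count table, and all 41 were found in it. Of these, 24 were listed as expressed from the paternal copy, 14 from the maternal copy and 3 (Grb10, Ddc and Gnas) from a copy that depends on tissue, promoter or isoform. The listing is a simplification, and whether it holds for every cell type and isoform in these tissues was not tested. The counts do not separate the parental copies, so every value below is the sum of both.

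The libraries were made from the cortex, striatum and cerebellum of 18 mice at 8 weeks of age, 1 library per mouse and region and 54 in all. In the 10 Mbd5+/GT mice, 1 copy of Mbd5 carried the gene trap pU-21B in its second intron, which leaves a hypomorphic allele, and the 8 WT mice were their littermates on the same C57BL/6 background. Mbd5 encodes a protein with a methyl-CpG-binding domain. There were 3 litters. Litter 1 was all female, with 3 mice of each genotype, litter 2 was all male, with 4 Mbd5+/GT mice and 1 WT mouse, and only litter 3 (3 Mbd5+/GT, 4 WT) had both sexes, so that differences between litters 1 and 2 cannot be told apart from sex. The study asked what reduced Mbd5 does to transcription in each region, and the imprinted genes were read here by region, litter and genotype. Which parent passed on the trapped copy was not analysed here.

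Library depth ran from 25295973 to 49027399 reads on genes, with a median of 29073866. Levels are given as CPM, counts relative to the library total after TMM scaling over all 54 libraries or, when genes are set against each other, as CPM per kb of merged exon. The targeted gene Mbd5 was lower in Mbd5+/GT mice in all 3 regions, at 46.0 ± 4.44 against 65.9 ± 9.55 CPM in cortex (SD, n = 10 and 8; log2 fold change −0.49, adjusted p = 0.00012 by edgeR's quasi-likelihood test), 36.1 ± 5.01 against 48.1 ± 8.49 CPM in striatum (−0.51, adjusted p = 9.41e-05) and 42.3 ± 10.9 against 55.0 ± 10.8 CPM in cerebellum (−0.34, adjusted p = 0.00912). Under every alternative Mbd5 was lower with an unadjusted p under 0.05, but the adjusted p was above 0.05 without surrogate variables (cortex 0.0575, striatum 0.835, cerebellum 1.00), with terms for litter and sex (0.797, 0.529 and 1.00) and, in striatum and cerebellum, without litter 2 (0.201 and 0.336). Of the 54 libraries, 6 stood apart by marker genes of their tissue. Summed cerebellar neuron markers were 134 CPM in the cerebellum of Mbd5+/GT mouse M755 and 1614 CPM in that of WT mouse M754, where the median was 5357 CPM. Summed striatal neuron markers were 722 and 271 CPM in the striatum of WT mice M761 and M754, where the median was 3648 CPM, and summed hypothalamus markers were 143 and 112 CPM in the cortex and striatum of Mbd5+/GT mouse M758, where the medians were 5.79 and 10.4 CPM. The labels mark 2 WT striatum libraries as repeated. All 6 libraries that stand apart were kept, and results that move without them are given both ways. In bulk tissue, fewer cells of a type and less RNA per cell cannot be told apart.

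Promoter windows of 33 of the 41 genes were found in RefSeq (GRCm38.p6), 50 windows in all, each from 250 bases before to 50 bases after a transcription start. Cdkn1c, H19, Impact, Peg10, Peg13, Rtl1, Sgce and Trappc9 had no entry. The members' windows held a median of 13 CpGs, against 7 over all 32851 windows of the table, and the ratio of observed to expected CpG reached 0.6 in 50% of them, against 35.8%. The 6 letters TGCCGC, the core that the imprint-keeping factor ZFP57 recognises when methylated, were present on either strand in 24% of the members' windows and in 11.6% of all windows; 11 of the 33 genes had at least 1 such window. The letters AAGATGGC, the core of the YY1 motif, were in none of the members' windows and in 2.75% of all windows. Below are the 250 bases before the start of Nnat (chr2:157559828-157560077, plus strand), the member with the lowest level in cortex relative to striatum, and the 146 bases between the GENCODE starts of the divergently transcribed neighbours Peg3 and Usp29, cut from their shared RefSeq window (chr7:6730432-6730577, written on the minus strand from which Peg3 is read), a pair whose levels correlated in every region. Capitals mark CpGs in these 2 sequences. The third is the 250 bases before the start of Nap1l5 (chr6:58907127-58907376, minus strand), among the most abundant members, with TGCCGC in capitals.
Nnat: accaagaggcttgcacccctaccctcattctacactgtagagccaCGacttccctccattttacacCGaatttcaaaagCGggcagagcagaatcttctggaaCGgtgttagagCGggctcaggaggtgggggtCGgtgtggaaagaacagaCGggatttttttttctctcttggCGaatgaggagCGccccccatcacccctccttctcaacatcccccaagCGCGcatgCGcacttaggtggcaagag
Peg3 to Usp29: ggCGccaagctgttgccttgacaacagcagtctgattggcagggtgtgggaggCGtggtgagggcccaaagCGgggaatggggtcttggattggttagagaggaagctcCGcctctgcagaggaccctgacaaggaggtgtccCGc
Nap1l5: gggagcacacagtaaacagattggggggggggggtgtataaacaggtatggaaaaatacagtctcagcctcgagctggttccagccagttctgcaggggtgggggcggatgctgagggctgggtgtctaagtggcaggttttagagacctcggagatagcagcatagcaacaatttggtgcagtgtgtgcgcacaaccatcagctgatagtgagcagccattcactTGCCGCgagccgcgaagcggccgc
The CpGs number 12 in the Nnat window, 5 between Peg3 and Usp29, and 10 in the Nap1l5 window, which held 1 TGCCGC.

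In WT mice the imprinted genes ranged from very abundant RNAs to almost no counts. In each region 15 of the 41 reached 10 CPM per kb. Of the others, 14 in cortex, 14 in striatum and 16 in cerebellum lay between 1 and 10 CPM per kb, and 12, 12 and 10 lay under 1 CPM per kb. Too few counts for a test (more than 4 counts in at least 8 libraries) were found for Peg12 and Phlda2 in cortex, Phlda2 in striatum, and Peg12, Phlda2 and Rtl1 in cerebellum, which left 39, 40 and 38 members. Phlda2, a gene that restrains placental growth, had at most 3 counts in any WT library.

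The most abundant per kb in cortex was Meg3, the maternally expressed noncoding RNA of the Dlk1-Dio3 cluster, at 334 ± 57.2 CPM per kb (SD, n = 8), ahead of Nap1l5 at 193 ± 33.1, Snrpn at 132 ± 17.97 and Gnas at 93.2 ± 10.96 CPM per kb. Nap1l5 is an intronless gene related to the nucleosome assembly proteins that lies inside an intron of Herc3, Snrpn encodes a small nuclear ribonucleoprotein of the Prader-Willi region, and Gnas encodes the stimulatory G protein alpha subunit. The first 3 were also the first 3 in striatum, at 235 ± 34.4 CPM per kb for Meg3, 154 ± 80.0 for Nap1l5 and 135 ± 17.3 for Snrpn, followed by Nnat at 109 ± 73.0 CPM per kb. In striatum Gnas came next at 95.8 ± 32.7 CPM per kb, and the SDs of Nap1l5 and Nnat were wide enough to span the means of Snrpn and Gnas. In cerebellum the order of the first 2 was the other way round, with Nap1l5 at 273 ± 43.6 and Meg3 at 179 ± 45.6 CPM per kb, before Snrpn at 119 ± 18.8 and Gnas at 88.3 ± 28.2 CPM per kb. Exons of Snrpn overlap Snurf and another gene on the same strand over 27.3% of their length, and those of Gnas overlap antisense genes over 21.96%, so the counts of both are uncertain.

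**Figure D1:**
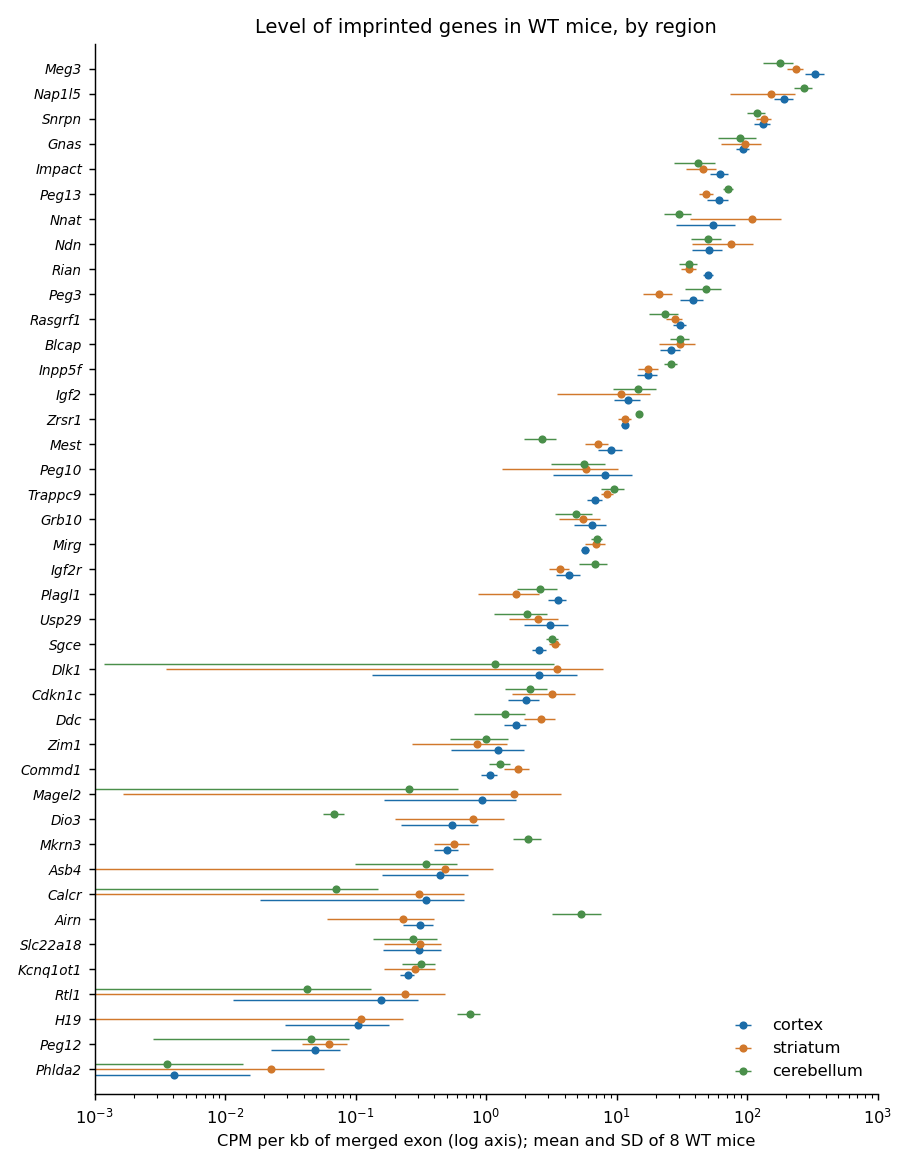
Level of the 41 imprinted genes in WT mice as CPM per kb of merged exon on a log axis, with the mean and SD of 8 mice in cortex (blue), striatum (orange) and cerebellum (green), sorted by cortex, and bars that reach the left edge are cut there. Meg3, Nap1l5 and Snrpn lie at the top in every region, Phlda2 at the bottom, and Airn, H19, Mkrn3, Dio3 and Mest in cerebellum lie away from the other 2 regions.

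Between regions of WT mice, the cerebellum differed most, and the genes involved were few. Of 40 members tested in all 54 libraries, 5 passed an adjusted p under 0.05 with at least a 2-fold difference between cerebellum and cortex, where 24.7% of all genes did, and 9 between cerebellum and striatum, where 30.1% did. Between cortex and striatum it was 1 member, where 10.5% of all genes did. In cerebellum minus cortex 3 members were higher and 2 lower, beside 8.97% and 15.7% of all genes, in cerebellum minus striatum 4 and 5, beside 12.8% and 17.3%, and in cortex minus striatum 1 and 0, beside 6.15% and 4.4%. In the same order, the median size of the members' differences was 0.42, 0.46 and 0.33 on the log2 scale, against 0.47, 0.61 and 0.40 over all genes. Summed cortical neuron markers had a median of 694 CPM (272 to 1030.5) in WT striatum, against 1083 CPM in WT cortex. Summed striatal neuron markers had a median of 1263 CPM (180 to 2037) in WT cortex, against 3968 CPM in WT striatum. The part of tissue mixture in the differences between regions was not tested.

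Airn showed the largest difference of all members. It is the paternally expressed antisense RNA that starts in an intron of Igf2r (chr17:12741311-12860136, plus strand), and it silences the paternal copy of Igf2r where it is made. Its level ran from 7.99 to 35.5 CPM in the cerebellum of WT mice, with a median of 18.1 CPM. In cortex it ran from 0.73 to 1.47 CPM, with a median of 1.04 CPM. In striatum it ran from 0.325 to 2.09 CPM, with a median of 0.63 CPM. No library of cerebellum overlapped the other regions, and the fitted difference was 17.1-fold over cortex (log2 4.10, SE 0.31, adjusted p = 1.97e-16) and 23.0-fold over striatum (log2 4.53, SE 0.32, adjusted p = 1.29e-17). Igf2r, the receptor that clears Igf2, named here as the gene Airn overlaps and after its values were seen, was also higher in cerebellum, at 63.3 ± 15.6 CPM against 40.4 ± 8.35 CPM in cortex and 34.4 ± 6.02 CPM in striatum (log2 0.65 and 0.88, adjusted p = 0.000394 and 3.25e-06), which is under the 2-fold limit. Inpp5f, Zrsr1, Nap1l5 and Peg13 were likewise higher in cerebellum than in both regions under that limit (adjusted p under 0.05), so this was not particular to Igf2r.

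H19 and Mkrn3 were the other members at least 2-fold higher in cerebellum than in both other regions. H19, the maternally expressed noncoding RNA next to Igf2, had 42 to 69 counts in the WT libraries of cerebellum and 3 to 16 in those of cortex, with means of 1.84 ± 0.359 and 0.257 ± 0.186 CPM, and 0.272 ± 0.298 CPM in striatum. The differences were 7.20-fold (adjusted p = 8.89e-09) and 6.65-fold (adjusted p = 1.42e-08). Mkrn3, a RING finger gene of the Prader-Willi region known as a brake on puberty, had 5.38 ± 1.29 CPM in cerebellum against 1.27 ± 0.268 in cortex and 1.46 ± 0.435 in striatum, a 4.21-fold and a 3.68-fold difference (adjusted p = 1.88e-14 and 3.18e-13). Peg3, a zinc finger gene tied to maternal care, was 2.28-fold higher in cerebellum than in striatum (645 ± 201 against 283 ± 71.5 CPM, adjusted p = 1.35e-06) with 511 ± 102 CPM in cortex. In Mbd5+/GT mice the difference of Peg3 between cerebellum and striatum was not called.

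Lower in cerebellum were Dio3 and Mest against both regions, and Nnat, Magel2 and Rtl1 against striatum. Rtl1 had means of 0.269 CPM in cerebellum and 1.51 CPM in striatum (adjusted p = 0.0264). It had too few counts for a test within cerebellum and passed the filter over all 54 libraries through the other regions. That filter favours a lower level in cerebellum, so the direction of Rtl1 is not read as a result, here or against cortex. The 9 members called between cerebellum and striatum, 5 of them lower in cerebellum, include Rtl1. Dio3, the deiodinase that inactivates thyroid hormone, was at the limit of counting, with 3 to 5 counts in every WT library of cerebellum against 10 to 64 in cortex and 8 to 113 in striatum, a 7.75-fold and an 11.3-fold difference (adjusted p = 1.78e-06 and 4.10e-08). Mest, which is similar to hydrolases and lies beside Copg2, had 10.6 ± 2.88 CPM in cerebellum, 35.97 ± 7.52 CPM in cortex and 28.4 ± 5.59 CPM in striatum, with adjusted p of 1.90e-13 and 9.21e-11. Its exons overlap Copg2 on the opposite strand over 23.1% of their length, and the strand used in counting is not given in the sources used here.

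Nnat, a small membrane protein inside an intron of Blcap, had the lowest log2 difference of cortex minus striatum. It ran from 109 to 519 CPM in the striatum of WT mice, with a median of 156 CPM, from 26.9 to 170 CPM in cortex, with a median of 94.3 CPM, and from 32.5 to 76.5 CPM in cerebellum, with a median of 55.3 CPM. Striatum and cerebellum did not overlap, whereas striatum and cortex did. The differences were 3.62-fold against cerebellum (adjusted p = 2.84e-07) and 1.995-fold against cortex (log2 cortex minus striatum −0.997, SE 0.29, adjusted p = 0.00381). The highest value was in the striatum of mouse M761, 1 of the libraries that stand apart. Without those libraries the difference between cortex and striatum was −0.58 on the log2 scale (adjusted p = 0.0618).

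Plagl1, a zinc finger gene that regulates other imprinted genes, was the 1 member called between cortex and striatum, at 27.6 ± 4.47 against 13.2 ± 6.52 CPM (log2 difference 1.061, SE 0.24, adjusted p = 0.000407). In Mbd5+/GT mice the same difference was 0.50 on the log2 scale (adjusted p = 0.0648). Without the repeated libraries Plagl1 was not called and Nnat was. The next members higher in cortex were Peg3 (log2 difference 0.85) and Zim1, a zinc finger gene beside Peg3 (0.53, adjusted p = 0.311). On the side of striatum, after Nnat, came Magel2 (−0.82, adjusted p = 0.402) and Commd1, a copper metabolism gene (−0.73, adjusted p = 6.84e-05).

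Between cerebellum and cortex, the calls of Magel2, Dlk1, Calcr and Rtl1 depended on the setting. All 4 were called without the libraries that stand apart. With every library kept, Magel2 was also called there with the mouse as block, with DESeq2 and in Mbd5+/GT mice, and the block added Dlk1 between cerebellum and striatum. Magel2, a neuronal gene of the Prader-Willi region with high expression in the hypothalamus, ran from 0.259 to 4.77 CPM in the cerebellum of WT mice, 0.65 to 10.2 CPM in cortex and 1.70 to 30.9 CPM in striatum. Its highest cerebellar values, 8.78 and 4.77 CPM, were in mice M755 and M754, whose cerebellar markers were low and whose summed hypothalamus markers were 17.5 and 7.88 CPM against a median of 1.49 CPM. In the cerebellum of M760 the hypothalamus markers summed to 7.91 CPM with 0.153 CPM of Magel2. Dlk1, a transmembrane inhibitor of differentiation, had 63.3 and 35.1 CPM in the same 2 cerebellar libraries and a median of 1.54 CPM over the WT mice. Without the libraries that stand apart, 9 members were called between cerebellum and cortex in place of 5, beside 26.6% of all genes in place of 24.7%. Magel2 (log2 −2.66, adjusted p = 0.00103) and Calcr (−2.85, adjusted p = 0.0127), with Dlk1 and Rtl1, joined those above. The 9 thus include Rtl1, whose direction is not read as a result. Between cerebellum and striatum, 13 members were called without these libraries in place of 9, beside 31.6% of all genes in place of 30.1%. The part of tissue outside the labelled region in these values was not tested.

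The spread among WT mice was above that of the median gene for most imprinted genes. The SD of log2 CPM among the 8 WT mice had a median over the members of 0.38 (cerebellum), 0.31 (cortex) and 0.45 (striatum), against 0.33, 0.25 and 0.31 over all genes. The members lay at a median percentile of 60.1, 62.7 and 69.0 among the genes tested, and at 62.8 in striatum without the libraries that stand apart. Dlk1 and Magel2 were among the most variable genes, with SDs of 2.11 and 1.45 in cortex, at the percentiles 99.8 and 99.3. Zrsr1, a paternally expressed splicing factor gene that arose by retrotransposition, was among the steadiest, with an SD of 0.092 in cortex and 0.074 in cerebellum, at the percentiles 4.37 and 0.881. Its mean level was 51.9 ± 3.39 CPM in cortex, 52.3 ± 5.91 in striatum and 66.5 ± 3.41 CPM in cerebellum.

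Mbd5+/GT and WT mice did not differ in any imprinted gene at an adjusted p under 0.05, in any region. In these fits 0.0107%, 0.00539% and 0.00551% of all genes passed in cortex, striatum and cerebellum. At an unadjusted p under 0.05 it was 2 of 39 members in cortex, against 8.47% of all genes, then 7 of 40 in striatum, against 7.44%, and in cerebellum 1 of 38, against 2.75%. The 2 in cortex were 1 higher (3.96% of all genes) and 1 lower (4.51%), the 7 in striatum were all higher (4.24% of all genes; 3.2% were lower), and the 1 in cerebellum was lower (1.78%; 0.964% were higher). DESeq2 also called 0 members after adjustment, and 4, 7 and 1 without it, where it called 8.15%, 7.32% and 2.65% of all genes. The members' median log2 fold change was −0.01 in cerebellum, 0.02 in cortex and 0.07 in striatum, against −0.003, −0.004 and −0.01 over all genes.

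**Figure D2:**
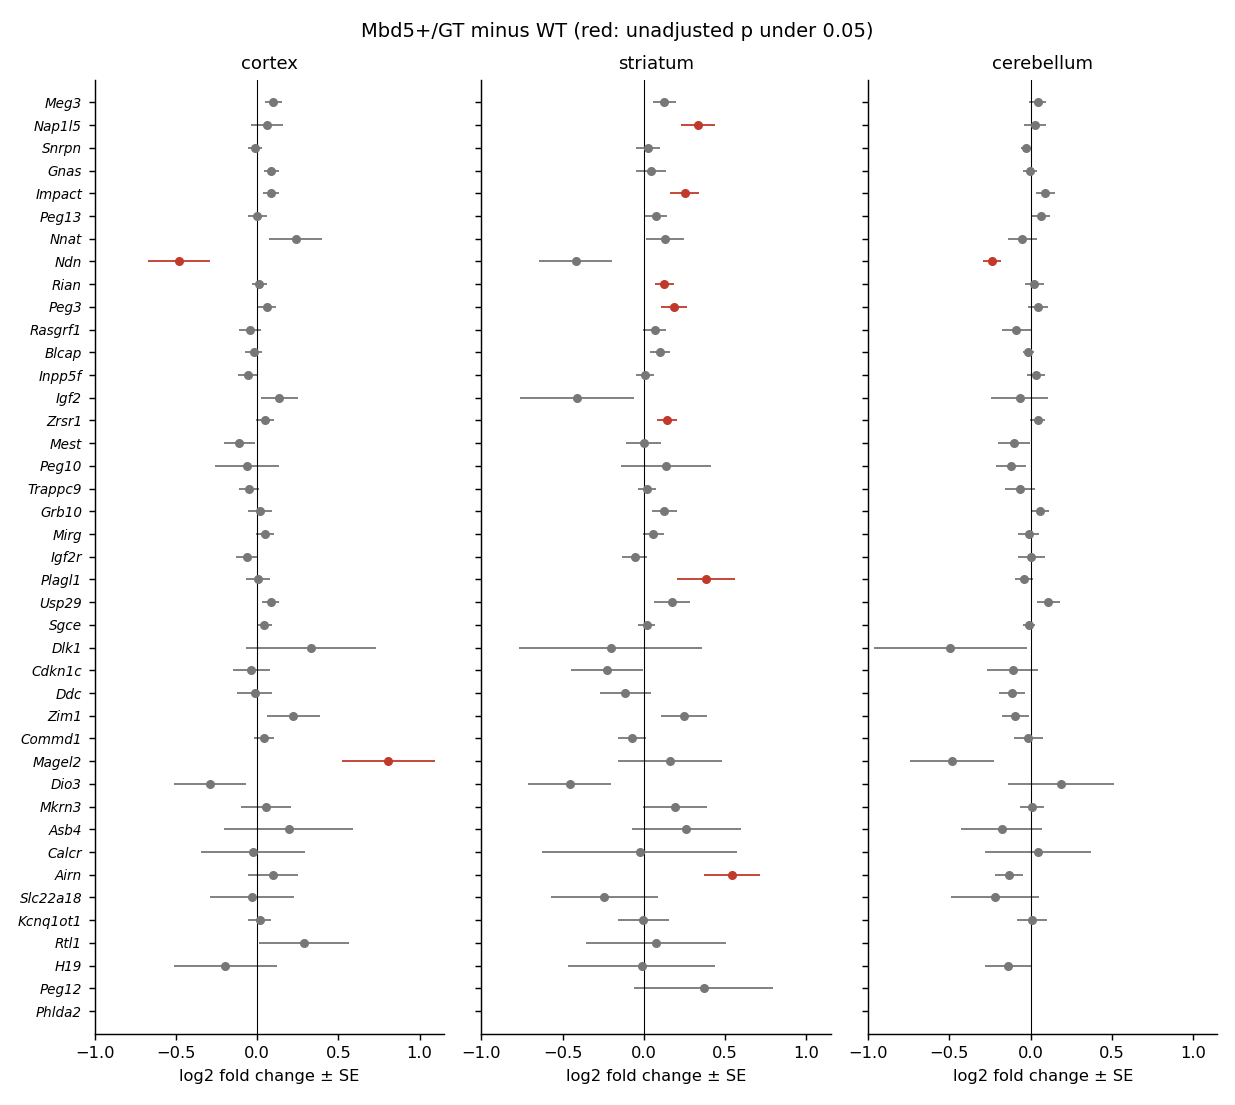
Log2 fold change of Mbd5+/GT against WT mice with its SE for each imprinted gene tested in cortex, striatum and cerebellum, from the fit with surrogate variables, sorted as in the plot of levels. Red points have an unadjusted p under 0.05: Ndn and Magel2 in cortex, 7 genes to the right of 0 in striatum, and Ndn in cerebellum, and none passes adjustment.

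Ndn had the most recurrent difference. It encodes necdin, a MAGE family protein of postmitotic neurons, and is an intronless gene of the Prader-Willi region (chr7:62346569-62350262, plus strand, with no exon shared with another gene). In cortex it ran from 79.1 to 223 CPM in the 10 Mbd5+/GT mice, with a median of 119 CPM, and from 135 to 274 CPM in the 8 WT mice, with a median of 179 CPM. The groups overlapped, but 6 of 10 Mbd5+/GT mice lay below every WT mouse, and 9 of 10 below the WT mean. The means were 130 ± 50.9 against 189 ± 48.7 CPM (log2 fold change −0.48, SE 0.19, unadjusted p = 0.0262, adjusted p = 0.507). With a filter of at least 1 count the unadjusted p was 0.0557. Marker sums differed in the same libraries: 9 striatal neuron markers summed to a median of 569 CPM (264 to 1399) in the cortex of Mbd5+/GT mice and 1263 CPM (180 to 2037) in that of WT mice, and 10 choroid plexus markers to 305 CPM (9.43 to 1346) and 72.3 CPM (22.6 to 245). For 10 hypothalamus markers the medians were 4.92 CPM (3.28 to 143) in Mbd5+/GT and 8.00 CPM (2.05 to 35.8) in WT mice. Other sums lay closer, with medians of 1226 and 1083 CPM for cortical neurons, 99.6 and 95.5 CPM for meninges, and 243 and 269 CPM for endothelium. They were 110 and 88.2 CPM for erythrocytes and 176 and 204 CPM for cerebellar neurons. Between cortex and striatum of WT mice, Ndn did not pass adjustment (log2 cortex minus striatum −0.55, adjusted p = 0.0646). Its highest striatal value, 609 CPM, was in mouse M761, a library with low striatal markers. The part of tissue composition in the genotype difference of Ndn was not tested.

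In striatum Ndn ran from 92.7 to 313 CPM in Mbd5+/GT mice, with a median of 136 CPM, and from 188 to 609 CPM in WT mice, with a median of 235 CPM. Again 6 of 10 Mbd5+/GT mice were below every WT mouse, and the WT maximum was in the striatum of mouse M761, which stands apart. The fitted difference was −0.42 (SE 0.22, unadjusted p = 0.0824), and it was −0.66 without surrogate variables (p = 0.0206), −0.64 with terms for litter and sex (p = 0.0435) and −0.67 without litter 2 (p = 0.0108). In cerebellum the groups overlapped over most of their range, from 93.6 to 291 CPM with a median of 166 CPM in Mbd5+/GT mice and from 127 to 271 CPM with a median of 172 CPM in WT mice. There the fit with surrogate variables gave −0.24 (SE 0.057, unadjusted p = 0.000437, adjusted p = 0.809), whereas without surrogate variables the difference was −0.14 (p = 0.486), and with terms for litter and sex −0.22 (p = 0.271).

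The means of Ndn were lower in Mbd5+/GT mice within each of the 3 litters in each of the 3 regions, by between 0.17 and 1.06 on the log2 scale, with 1 WT mouse in litter 2. On log2 CPM with no model, all 43758 assignments of genotype to the mice were enumerated (exact permutation test, two-sided), which gave p = 0.020 for cortex, 0.0264 for striatum and 0.414 for cerebellum. The 3500 assignments that keep each litter's numbers gave exact p of 0.0231, 0.0263 and 0.404. For the mean of the 3 regions of each mouse, the difference was −0.48 (exact permutation p = 0.0246, within litters 0.0303), and the SD was 0.50 among Mbd5+/GT mice and 0.18 among WT mice. These are 4 of 40 exact tests, run on Mbd5 and the 9 members with an unadjusted p under 0.05 in a fit, so they repeat the comparison and do not add to it. The Ndn effect in cortex against cerebellum, cortex against striatum and striatum against cerebellum had unadjusted p of 0.231, 0.771 and 0.139 for a difference.

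The level of Ndn followed the mouse across regions. Over the 18 mice, Pearson's r between cortex and striatum was 0.67 (rho 0.55, permutation p = 0.00205, adjusted over 3 pairs 0.00615), between cortex and cerebellum 0.53 (rho 0.43, permutation p = 0.0246, adjusted 0.0369), and between striatum and cerebellum 0.34 (rho 0.37, permutation p = 0.17, adjusted 0.17). With deviations from the means of litter and genotype, r was 0.69, 0.52 and 0.45. Without the 2 mice farthest from the median, r was 0.54, 0.41 and 0.55, so that the relation between cortex and cerebellum no longer passed (adjusted p = 0.111). The mean r of 0.51 stood at the percentile 98.7 of the 17221 genes tested in all regions. Zrsr1 stood at 97.8 with a mean r of 0.44. The median of the 38 members tested in all regions was 0.045, against 0.031 over all genes.

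**Figure D3:**
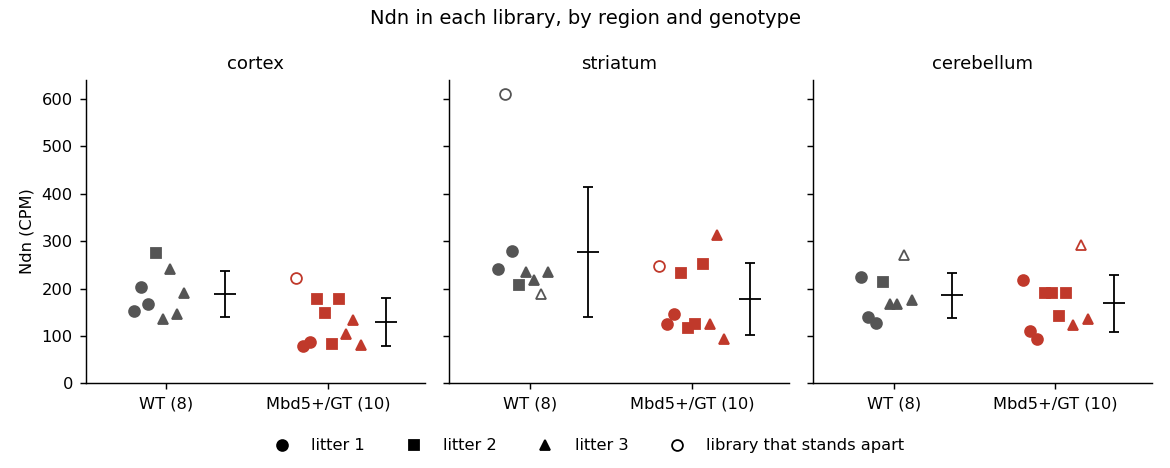
Ndn in CPM in each library of cortex, striatum and cerebellum, for 8 WT (grey) and 10 Mbd5+/GT mice (red), with symbols for the litters, open symbols for libraries that stand apart, and bars for mean and SD. In cortex and striatum 6 of the 10 Mbd5+/GT mice lie below the lowest WT mouse, and the groups overlap in each region.

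The neighbours of Ndn had other values. Magel2, next to it on chromosome 7, ran from 1.65 to 20.2 CPM in the cortex of Mbd5+/GT mice, with a median of 2.92 CPM, and from 0.65 to 10.2 CPM in that of WT mice, with a median of 3.78 CPM. The fit with surrogate variables put it higher in Mbd5+/GT mice (log2 fold change 0.81, SE 0.29, unadjusted p = 0.0134, adjusted p = 0.4663) although its median was lower. The highest value was in mouse M758, whose summed hypothalamus markers were high, and without the libraries that stand apart the difference was 0.67 (p = 0.0627), and without surrogate variables 0.42 (p = 0.498). Snrpn had 287 ± 29.7 CPM in Mbd5+/GT and 284 ± 38.8 CPM in WT mice in cortex.

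In striatum all 7 members with an unadjusted p under 0.05 were higher in Mbd5+/GT mice, where 4.24% of all genes were higher at that threshold, and none was lower. They were Nap1l5, Airn, Impact, Peg3, Zrsr1, Plagl1, all paternally expressed, and the maternally expressed Rian, with adjusted p from 0.629 to 0.67. Of the 24 paternally expressed members 18 were above 0 in the fit, and of the 13 maternally expressed members tested 7, beside 46.6% of all genes. In cortex it was 16 of 23 and 6 of 13, beside 47.8%. In cerebellum it was 10 of 22 and 4 of 13, beside 47.3%. For each of the 7 genes named above the genotype groups overlapped. The count was 2 without surrogate variables (Rian higher and Ndn lower), 5 with terms for litter and sex, 5 without the libraries that stand apart, 3 without the 2 libraries labelled as repeated and 10 without litter 2. Of all genes, 5.44%, 9.22%, 6.50%, 5.60% and 19.8% passed under these settings. Striatal neuron markers in striatum had median sums of 3135 CPM (1363 to 7874) in Mbd5+/GT and 3968 CPM (271 to 8083) in WT mice. Cortical neuron markers had 756.6 (18.9 to 1423) and 694.5 CPM (272 to 1030.5). Log2 WT cortex minus striatum was 1.06 for Plagl1, 0.85 for Peg3 and 0.49 for Rian, which passed adjustment. It was 0.43 for Airn, 0.42 for Impact, 0.33 for Nap1l5 and −0.01 for Zrsr1, which did not. The part of tissue composition in the genotype differences was not tested.

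Nap1l5 ran from 204 to 548 CPM in Mbd5+/GT mice, with a median of 315 CPM, and from 154 to 611 CPM in WT mice, with a median of 240 CPM (fold change on the log2 scale 0.33, SE 0.11, unadjusted p = 0.00584). The highest WT library was that of mouse M761, which stands apart. Airn was near the limit of counting in striatum, with 14 to 43 counts in Mbd5+/GT and 8 to 65 in WT libraries, and a difference of 0.54 (SE 0.17, p = 0.00599). The 2 highest WT values of Airn were in the libraries of M754 and M761, which stand apart. Without surrogate variables Nap1l5 was at 0.17 (p = 0.486) and Airn at 0.21 (p = 0.537).

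Impact, an inhibitor of the kinase Gcn2, had medians of 244 CPM in Mbd5+/GT and 215 CPM in WT mice (difference 0.25, SE 0.090, p = 0.0118). Peg3 had medians of 322 and 277 CPM (0.19, SE 0.080, p = 0.0304), Zrsr1 of 56.2 and 49.8 CPM (0.14, SE 0.060, p = 0.0306) and Plagl1 of 19.1 and 12.4 CPM (0.38, SE 0.18, p = 0.0492). Of these, Impact and Zrsr1 kept an unadjusted p under 0.05 without the libraries that stand apart, and none of the 4 kept it without surrogate variables.

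Rian, a host of many small nucleolar RNAs in the Dlk1-Dio3 cluster, was the 1 member of the 7 that passed with and without surrogate variables. It ran from 664 to 880 CPM in the striatum of Mbd5+/GT mice, with a median of 750 CPM, and from 568 to 855 CPM in that of WT mice, with a median of 642 CPM. All 10 Mbd5+/GT mice were above the WT mean on the log2 scale, and 1 WT mouse, M757, lay among the highest of them. The difference was 0.12 with surrogate variables (SE 0.058, unadjusted p = 0.0458) and 0.18 without (p = 0.03), with an exact permutation p of 0.0168, and 0.0231 within litters. Without the libraries that stand apart it was 0.12 (p = 0.0672), and without the repeated libraries 0.12 (p = 0.103). In cortex the means were 907 ± 121 and 915 ± 79.6 CPM, and in cerebellum 646 ± 76.1 and 649 ± 101 CPM. The difference of the Rian effect between striatum and these regions had unadjusted p of 0.0895 and 0.0963.

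**Figure D4:**
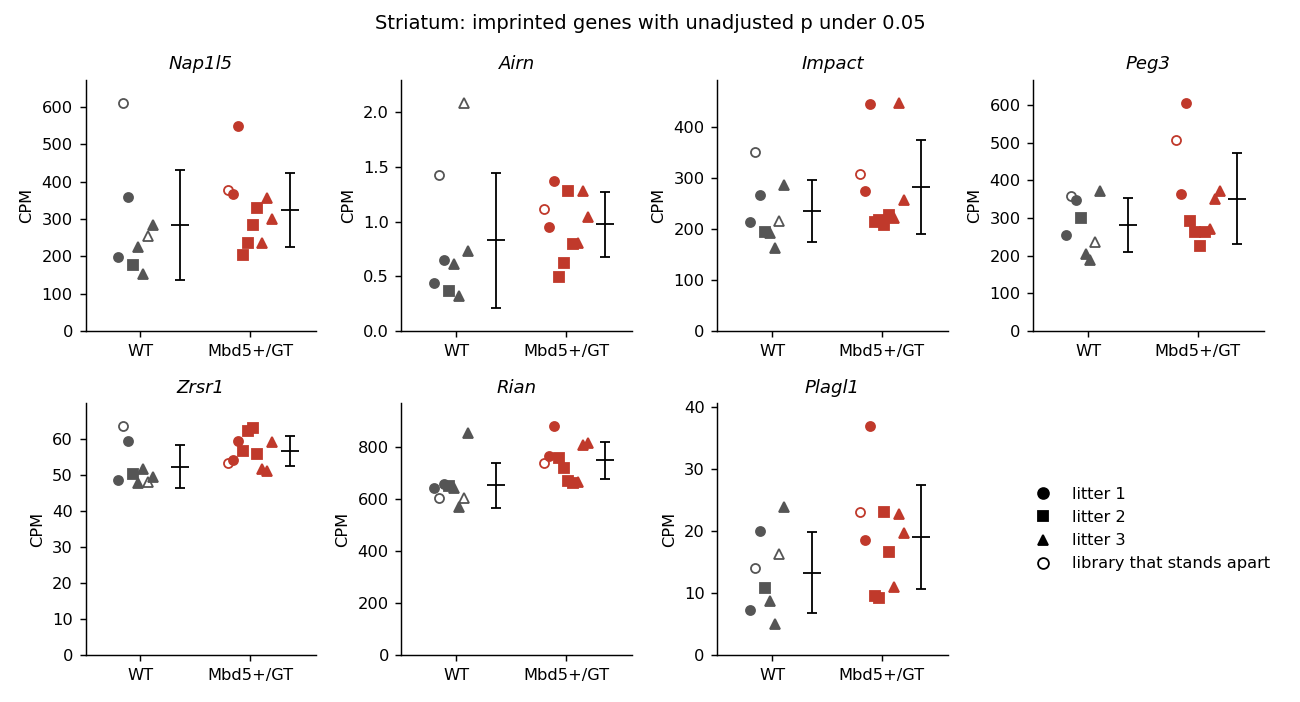
The 7 imprinted genes with an unadjusted p under 0.05 in striatum, in CPM per library from 0, for WT (grey) and Mbd5+/GT mice (red), with symbols for litters, open symbols for libraries that stand apart, and bars for mean and SD. The groups overlap for every gene, and for Rian all but 1 of the WT mice lie below every Mbd5+/GT mouse.

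No member's genotype effect differed between regions after adjustment, where the smallest adjusted p was 0.989. Without adjustment it was 0 of 40 members for cortex against striatum (4.22% of all genes), 0 for cortex against cerebellum (1.11%) and 1 for striatum against cerebellum (2.68%), which was Plagl1 (difference of effects 0.67, SE 0.32, p = 0.0435). Without the libraries that stand apart Airn also passed in both comparisons of striatum, and Nap1l5 in that with cortex, where 4.39% of all genes passed (2.66% against cerebellum).

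Other imprinted genes and the factors that keep imprints were read in the same fits. Of 28 further imprinted genes, 27 were tested in cortex and 6 had an unadjusted p under 0.05, 3 higher and 3 lower, where 8.47% of all genes had one. Higher were Ascl2 (0.93 on the log2 scale), Pon3 (0.40) and Osbpl5 (0.13), and lower were Slc22a3 (−0.50), the serotonin receptor gene Htr2a (−0.41) and Ppp1r9a (−0.20), with adjusted p from 0.436 to 0.553. Ascl2 was near the limit of counting, at 0.221 ± 0.0887 CPM in Mbd5+/GT and 0.122 ± 0.067 CPM in WT mice. In striatum it was 3 of 27, beside 7.44% of all genes: Ube3a, the ubiquitin ligase of Angelman syndrome, at 74.7 ± 22.7 against 50.6 ± 22.3 CPM (0.35, p = 0.0132), Casd1 (0.18, p = 0.0228) and Slc22a3 (−0.31, p = 0.0196). In cerebellum it was 0 of 25, beside 2.75%.

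Of 23 regulators of imprinting, such as DNA methyltransferases and zinc finger factors, 22 were tested in each region and none passed adjustment. Zfp57 was nominally higher in the cortex of Mbd5+/GT mice (16.9 ± 2.51 against 14.7 ± 3.01 CPM, log2 0.20, p = 0.0241). Atrx, a chromatin remodeller on the X chromosome (0.24, p = 0.00906), and Arid4b (0.24, p = 0.00384) were nominally higher in striatum, where 20 of the 22 regulators and 46.6% of all genes were above 0. The counts of 1, 2 and 0 of 22 in cortex, striatum and cerebellum stand beside 8.47%, 7.44% and 2.75% of all genes.

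Between litters, no member passed adjustment, which 0.0162% of all genes did in striatum and none in the other regions. At an unadjusted p under 0.05, 2 of 39 members differed in cortex (7.8% of all genes), 12 of 40 in striatum (12.2%) and 12 of 38 in cerebellum (13.3%), in a test with genotype as a term. The genes named here were chosen after their values were seen. In cortex they were Peg3, at 590 ± 71.1 CPM in litter 1, 456 ± 58.9 in litter 2 and 473 ± 111 in litter 3 (p = 0.0342), and Plagl1, at 31.1 ± 4.70, 25.3 ± 1.76 and 25.1 ± 5.13 CPM (p = 0.0364).

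In striatum Grb10, an adaptor that restrains insulin signalling, was highest in litter 1 at 72.4 ± 21.2 CPM, against 41.4 ± 7.82 in litter 2 and 45.2 ± 13.4 in litter 3 (p = 0.000872, adjusted p = 0.22). Zim1 had 12.8 ± 6.19, 4.96 ± 1.92 and 5.45 ± 3.18 CPM (p = 0.00178), and Usp29, a ubiquitin protease gene beside Peg3, had 64.4 ± 20.5, 40.4 ± 9.84 and 38.9 ± 10.3 CPM (p = 0.0031). Litter 1 held only females and 2 of the 3 striatum libraries that stand apart. With sex as a term the members counted in striatum were 3 in place of 12, and 5.68% of all genes. Without the libraries that stand apart they were 8, against 5.74% of all genes.

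In cerebellum Dlk1 was at 0.186 ± 0.114 CPM in litter 2, 2.93 ± 4.66 in litter 1 and 15.4 ± 24.6 in litter 3, which held both libraries with low cerebellar markers (p = 0.00241, adjusted p = 0.37). Mirg, a noncoding RNA that hosts many microRNAs, was at 59.8 ± 3.27 CPM in litter 2 against 49.996 ± 4.55 and 48.2 ± 6.48 CPM in litters 1 and 3 (p = 0.0133). Without the libraries that stand apart 6 members were counted, against 8.19% of all genes, and without litter 2 it was 0, against 1.59%.

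Levels of neighbours in a cluster correlated across mice in some clusters. In 15 pairs and 3 regions, 15 of 45 correlations of log2 CPM over the 18 mice had a permutation p under 0.05 after adjustment over the 45. The pairs Nnat and Blcap, Peg3 and Usp29, and Meg3 and Rian passed in all 3 regions. All libraries of a region share its depth range and any tissue mixture, so the values describe a shared spread. Pairs of genes that are not neighbours were not correlated, so the count has no background share. Whether it is particular to neighbours or to imprinted genes was not tested.

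For Nnat and Blcap, r was 0.78 in cortex (rho 0.81, permutation p = 1e-04, adjusted 9e-04), 0.93 in striatum (rho 0.86, p = 1e-05, the smallest that 100000 permutations can give, adjusted 0.000225) and 0.61 in cerebellum (rho 0.61, permutation p = 0.00808, adjusted 0.0242). Without the 2 mice farthest from the median it was 0.91, 0.85 and 0.38, and with deviations from the means of litter and genotype 0.78, 0.91 and 0.60. Nnat lies within Blcap on the opposite strand, and no Blcap exon overlaps another gene.

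Peg3 and Usp29, whose RefSeq starts are 164 bases apart and face away from each other, had r of 0.69 in cortex (rho 0.69, permutation p = 0.00172, adjusted 0.00774), 0.83 in striatum (rho 0.76, permutation p = 3e-05, adjusted 0.00045) and 0.61 in cerebellum (rho 0.74, permutation p = 0.00784, adjusted 0.0242). Without the 2 farthest mice r was 0.63, 0.71 and 0.60, and within litter and genotype 0.68, 0.75 and 0.57. Meg3 and Rian, transcribed in the same direction along chromosome 12, had r of 0.69 (rho 0.70, permutation p = 0.0015, adjusted 0.0075), 0.60 (rho 0.42, permutation p = 0.00634, adjusted 0.022) and 0.77 (rho 0.79, permutation p = 0.00024, adjusted 0.00154). In striatum the last pair rested on 2 mice, with r = 0.34 without them.

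**Figure D5:**
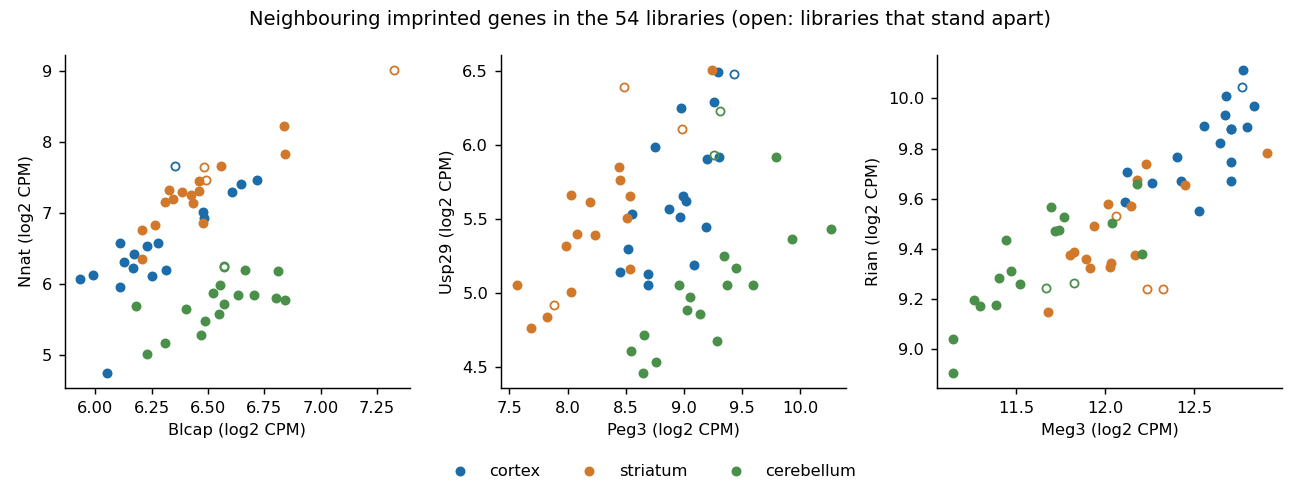
Log2 CPM of Nnat against Blcap, Usp29 against Peg3, and Rian against Meg3 in all 54 libraries, coloured by region, with open symbols for libraries that stand apart. Within each colour the points rise from left to right, and the regions lie at different levels, so r was computed within a region.

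The others passed in 1 or 2 regions. Igf2r and its antisense RNA Airn correlated in cerebellum, where Airn was abundant (r = 0.77, rho 0.77, permutation p = 2e-04, adjusted 0.0015; 0.75 without the 2 farthest mice). Ndn and Snrpn also passed in cerebellum (r = 0.80, rho 0.84, permutation p = 1e-04, adjusted 9e-04), while in cortex r was −0.16. Peg13, a noncoding RNA within Trappc9 on the same strand, followed Trappc9 in cortex (r = 0.84, rho 0.89, permutation p = 1e-05, adjusted 0.000225). Whether r differs between regions was not tested.

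Cdkn1c, an inhibitor of the cell cycle, and Kcnq1ot1, the antisense RNA that silences it on the paternal copy, went in opposite directions in cerebellum (r = −0.77, rho −0.58, permutation p = 0.00046, adjusted 0.00259), and r was −0.46 without the libraries that stand apart. Grb10 and Ddc correlated in cortex (r = 0.64, rho 0.55, permutation p = 0.00452, adjusted 0.0185). In cerebellum their r of 0.67 (rho 0.077, permutation p = 0.00575, adjusted 0.0216) turned to −0.14 without the 2 farthest mice, the same value as without M755 and M754, and so rested on those mice.

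Igf2, the growth factor, was set against markers of the tissues that make it in the adult brain, the choroid plexus and the meninges. Its level in WT mice was 70.3 ± 16.1 CPM in cortex, 61.3 ± 41.2 in striatum and 83.9 ± 30.1 CPM in cerebellum. In striatum the summed level of 10 choroid plexus markers ran from 14.4 to 6094 CPM over the mice, and Igf2 followed it with r = 0.89 (rho 0.72, permutation p = 2e-05, adjusted over 6 relations 0.00012; 0.81 without the 2 farthest mice). In cortex Igf2 followed the summed level of 10 meninges markers, which ran from 59.2 to 175 CPM (r = 0.65, rho 0.65, permutation p = 0.00342, adjusted 0.0103; 0.69 without the 2 farthest), and r with choroid plexus markers was 0.15 (permutation p = 0.557). With meninges markers in striatum r was 0.56 (rho 0.74, permutation p = 0.0164, adjusted 0.0246). In cerebellum r with meninges markers was 0.59 (rho 0.44, permutation p = 0.0109, adjusted 0.0218) and 0.11 without the 2 farthest mice, so it rested on them. Between genotypes Igf2 had an unadjusted p of 0.238 (cortex), 0.262 (striatum) and 0.712 (cerebellum). The part of choroid plexus and meninges in the Igf2 values was not tested.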

How the data were processed

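RNA-seq of 3 brain regions of 18 mice was analysed. The authors aligned reads to GRCm38 with STAR (2.4.2, after FastQC 0.10.1, per the submitters' notes) and deposited raw counts per Ensembl gene from its GeneCounts option. Which strand column was kept is not given in the sources used here, so overlapping and antisense genes are uncertain. Names, positions and exon lengths came from a GRCm38 GENCODE annotation, which matched 46488 of 47069 identifiers. Spike-ins (ERCC, 0.0207% to 0.728% per library) were excluded. All columns were used.

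Within a region, genes that exceeded 4 counts in 8 or more libraries were fitted with edgeR 4.0.16 (TMM, robust quasi-likelihood, R 4.3.3) with genotype and 4, 4 and 2 surrogate variables (sva 3.50.0) in cortex, striatum and cerebellum, adjusted by Benjamini-Hochberg over all genes. Regions and differences between them were fitted over all 54 libraries, and litters with genotype as a term. DESeq2 1.42.0 was an alternative. Log2 CPM had a prior count of 2, and correlations had 100000 permutations. The fits were tested on simulated counts with 2-fold changes and no tissue mixture. That test does not cover the smaller genotype effects given above. The SE is the log2 fold change divided by the square root of F.

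Genes named in full were, by rule, those with an unadjusted p under 0.05 between genotypes, the 3 largest differences each way between regions, the 4 highest per kb, and Mbd5; others are said to be chosen after their values were seen. The members, lists and marker lists were chosen with earlier results of these data known. Libraries stood apart where markers of their region summed to under 1/3 of the region's median or hypothalamus markers to over 10 times it, a rule made after the data were seen. The 3 libraries of a mouse are from the same animal, so the mouse pairs regions: deviations from group means correlated with a median of 0.0911, 0.164 and 0.0618 within a mouse and −0.00588, −0.0103 and −0.00495 between mice. No 2 libraries of a group were alike within sampling noise (at least 8.33 chi-square per gene). P-values rest on the spread between mice of a group. In the main genotype fits this is the spread that remains after the surrogate variables are removed, which can be far smaller than the spread of the levels. The main fit over all 54 libraries has no term for the mouse and treats its 3 libraries as separate.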

Additional observations from a re-analysis of the deposited data

Results flagged for a closer look

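For each imprinted gene tested, the highest or lowest library of each group was compared with the rest of the group by its gap to the nearest library divided by the range of the group (Dixon's ratio, on log2 CPM). Of 234 groups, 29 had a library past the 95% limit, where chance flags about 1 in 20, and 21 of the 29 were libraries that stand apart by their region's markers. The cerebellum of Mbd5+/GT mouse M755, with the lowest cerebellar markers, accounted for 13. It was the highest of its group for Magel2 (0.468), Impact (0.612), Usp29 (0.492), Ddc (0.557), Peg10 (0.542), Grb10 (0.567), Rasgrf1 (0.534), Cdkn1c (0.702), Calcr (0.512) and Gnas (0.6), and the lowest for Airn (0.639), H19 (0.471) and Mkrn3 (0.542). The cerebellum of WT mouse M754 was the highest for Rasgrf1 (0.687) and Gnas (0.547). The striatum of WT mouse M761 was the highest for Ndn (0.666), Blcap (0.687), Nnat (0.6) and Snrpn (0.626), 4 genes of which Nnat and Blcap share a locus and Ndn and Snrpn a chromosomal region. The striatum of WT mouse M754 was the lowest for Inpp5f (0.53) and the highest for H19 (0.602). 

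The other 8 were in libraries that do not stand apart. Peg13 was highest in the cortex of WT mouse M751 (ratio 0.638, 410 CPM). Peg12 was lowest in the striatum of Mbd5+/GT mouse M756 (ratio 0.551, 0.0662 CPM). H19 was highest in the striatum of Mbd5+/GT mouse M755 (ratio 0.472, 0.721 CPM). Rian was highest in the striatum of WT mouse M757 (ratio 0.645, 855 CPM). Inpp5f was lowest in the cerebellum of Mbd5+/GT mouse M758 (ratio 0.488, 172 CPM). Rian was lowest in the cerebellum of Mbd5+/GT mouse M758 (ratio 0.469, 479 CPM). Commd1 was lowest in the cerebellum of Mbd5+/GT mouse M763 (ratio 0.48, 4.16 CPM). Sgce was lowest in the cerebellum of WT mouse M762 (ratio 0.53, 27.3 CPM). The part of tissue outside the region in these libraries was not tested.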

How the results depend on the processing

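No imprinted gene passed adjustment between genotypes, between genotype effects of regions or between litters under any alternative, DESeq2 included. The counts at an unadjusted p under 0.05 moved more. Between genotypes in cortex, 2 became 4 with DESeq2, 1 without surrogate variables, 1 with terms for litter and sex and 4 without litter 2. In striatum, 7 became 2 without surrogate variables, 3 with at least 10 counts in every library and 3 without the repeated libraries. In cerebellum, 1 became 0 without surrogate variables and 0 with terms for litter and sex, and 2 without litter 2 and with a filter of at least 1 count. Between litters, 2 in cortex became 4 with sex added, 6 without litter 2 and 1 without the libraries that stand apart, 12 in striatum became 3 with sex added, and 12 in cerebellum became 0 without litter 2 and 6 without the libraries that stand apart. For the effect of genotype by region, 0 for cortex against striatum became 1 (Plagl1) with the mouse as replicate block and 2 without the libraries that stand apart, and 1 for striatum against cerebellum became 2 without them. For genotype, all genes passing changed too, in cortex from 8.47% to 8.15%, 3.44%, 4.11% and 8.17% under those 4 settings, in striatum from 7.44% to 5.44%, 4.34% and 5.60%, and in cerebellum from 2.75% to 0.463%, 0.529%, 2.37% and 4.24%. Between litters, in the order above, it was 7.90%, 8.40% and 5.73% of all genes in cortex. It was 5.68% in striatum, and 1.59% and 8.19% in cerebellum. For the effect of genotype by region it was 3.93% and 4.39% for cortex against striatum, and 2.66% for striatum against cerebellum. The cause of these changes was not tested.

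Between regions, with the mouse as replicate block the members called were 6, 10 and 1 for cerebellum minus cortex, cerebellum minus striatum and cortex minus striatum, where Magel2 and Dlk1 were the additions, and the block changed no other call among members apart from the unadjusted one of Plagl1 above. With at least 10 counts in every library, which tests 30 members, they were 2, 5 and 2. Between cerebellum and cortex 9 were called without the libraries that stand apart, and between cerebellum and striatum 13. Between cortex and striatum 2 were called with DESeq2, RLE size factors, a filter of at least 1 count and without the libraries that stand apart, and 0 in Mbd5+/GT mice. Within litter and genotype, 5 neighbouring pairs correlated in striatum in place of 3. Igf2 and meninges markers had r = 0.51 in striatum and 0.11 in cerebellum without the 2 farthest mice, Igf2 and choroid plexus markers 0.55 in cerebellum within litter and genotype, and Grb10 and Ddc −0.14 in cerebellum without the 2 farthest mice. Of the alternatives for single genes and pairs, 302 kept direction and side of the threshold, 48 lost the call, 9 gained it and 1 reversed. Genes with few counts, such as Airn in striatum and Dio3 in cerebellum, are limited by depth.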
